A study of Mus musculus with 18 samples.

Results

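Among 12 libraries of detergent-treated mouse skin, 4 carried S100a8 at 30 CPM or more (CPM is the count of a gene scaled to the library total) and 8 carried less, and these sides, called S100a8-high and S100a8-low here, are compared below. The sides were chosen by the measured level of S100a8, a subunit of the alarmin calprotectin, and not by any label of the samples. The S100a8-high side holds replicates 1 and 4 of detergent A and replicates 2 and 4 of detergent B, and the S100a8-low side holds the other 4 libraries of each detergent. The 12 libraries are part of a series of 18, in which the remaining 6 are from skin treated with PBS (phosphate-buffered saline). All were made from skin of C57BL/6 mice aged 8 to 12 weeks, and no allele, transgene or other agent is named for any group. The dose, the duration, the body site and the identity of the detergents are not given in the labels, nor whether the libraries of a group are from separate animals, and p-values then cover no more than the spread between libraries, which may be technical. Total counts were 17312623 to 29599018 per library.

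Skin that is injured or irritated releases cytokines of the interleukin-1 family, and these drive keratinocytes, resident macrophages and fibroblasts to make chemokines that draw neutrophils and monocytes from the blood. Interleukin-1 beta is made as an inactive precursor, which is cleaved by caspase-1 in the inflammasome, an assembly of a sensor such as NLRP3 with an adaptor. Calprotectin, the dimer of S100a8 and S100a9, is abundant in neutrophils and monocytes and is also induced in stressed keratinocytes, so its transcript alone does not name a cell type.

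S100a8 itself was at 75.1 and 42.5 CPM in detergent A replicates 1 and 4, and at 146 and 45.3 CPM in detergent B replicates 2 and 4. The S100a8-low libraries ranged from 1.96 to 23.0 CPM with a median of 9.89, and the 6 PBS libraries from 4.11 to 15.1 CPM. The threshold therefore fell between 42.5 CPM in the nearest library above it and 23.0 CPM, in detergent B replicate 6, in the nearest below it. S100a9, the partner subunit, was at 129, 70.8, 139 and 52.8 CPM in the same order of S100a8-high libraries, against 4.91 to 33.9 CPM on the S100a8-low side. The members were proposed as inflamed against quiet skin. The markers S100a9 and Il1b did not overlap between the sides. In 17 of the 18 genes found higher below, the S100a8-low mean was below the PBS mean, which the choice of these genes favours. Ly6g, a surface marker of mouse neutrophils, was at 0 in all 8 S100a8-low libraries. It was at no more than 0.119 CPM in any S100a8-high library and reached 0.164 CPM in PBS. These values do not settle the proposed names, so the sides are named by S100a8 only.

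Because the split used these same libraries, differences between the sides are described without a test. Each is the coefficient of an edgeR model with detergent as a covariate, given as a log2 difference (S100a8-high minus S100a8-low) ± its standard error. A gene was counted as higher or lower where this difference was at least 2-fold and all values of one side lay above all values of the other. Of 16834 genes other than S100a8 and S100a9, 18 were higher (0.107%) and 1 was lower (0.00594%), and the split itself fixes part of these counts. At shares this small, a gene list with none of its members higher or lower is not thereby set apart from other genes. Whatever the overlap, 78 genes were at least 2-fold higher and 163 at least 2-fold lower, and whatever the fold, the sides did not overlap for 45 genes in the higher direction (0.267%) and 36 in the lower (0.214%). The median difference over all genes was -0.01 on the log2 scale. The 17 higher genes with a name were Cxcl2, Acod1, Stfa2l1, Trem1, Ccl4, Ccl3, Il1b, Clec4e, Nlrp3, Mcemp1, Clec4d, Hdc, Cd14, Atf3, Tnf, Srgn and Mmp13, and the other was the predicted gene Gm42793. The only lower gene was the predicted gene Gm45424, at 0.101 to 0.358 CPM in the S100a8-high libraries and 0.395 to 0.859 CPM in the S100a8-low ones.

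**Figure D1:**
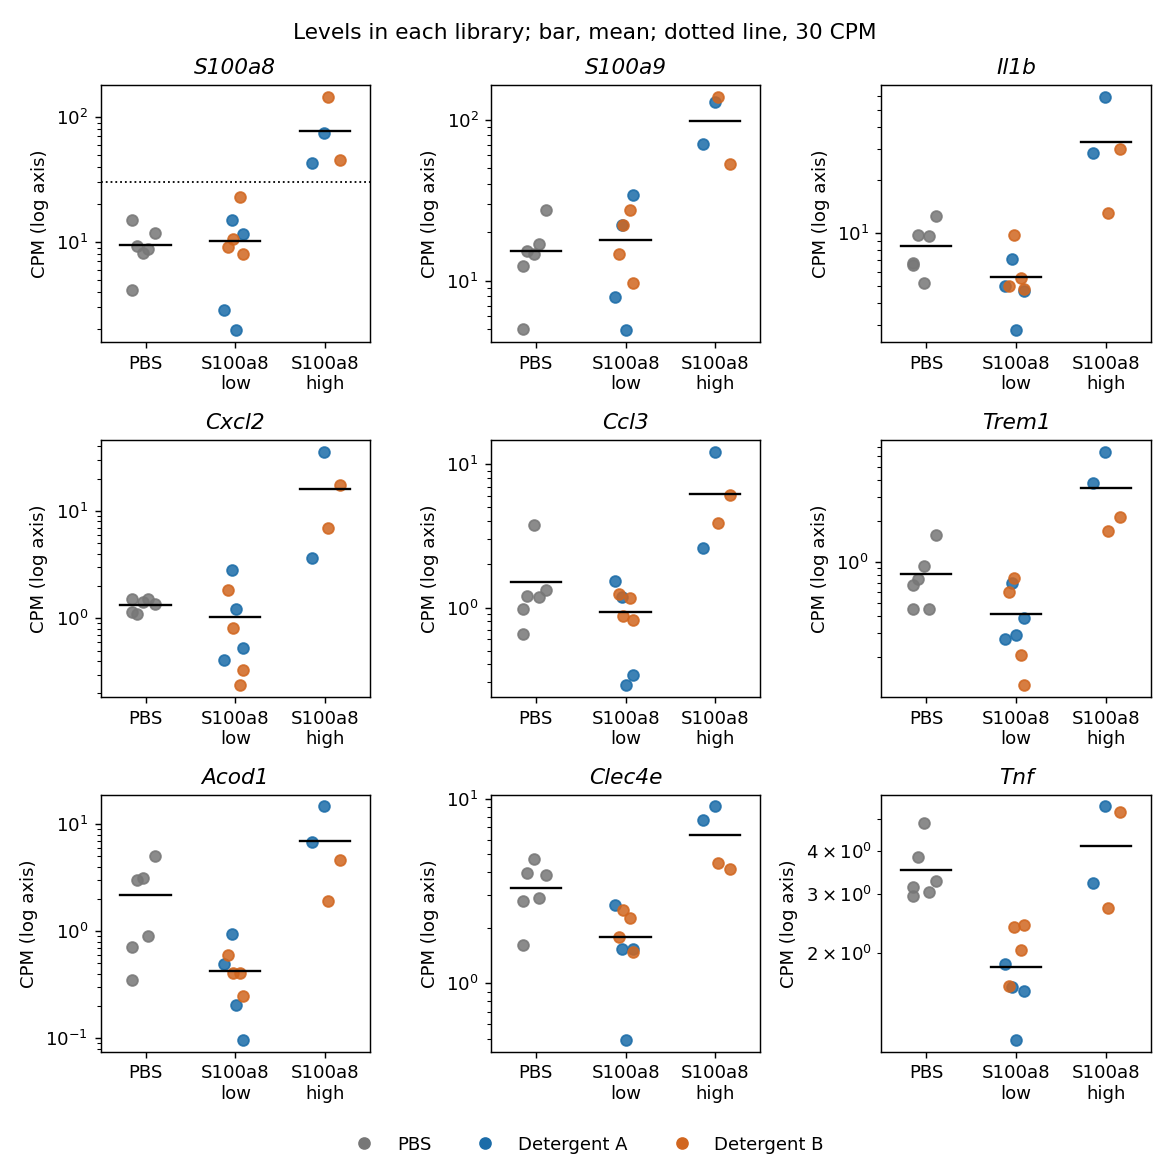
CPM on a log axis of 9 genes in each of 18 libraries, with 6 PBS, 8 S100a8-low and 4 S100a8-high libraries on the horizontal axis; points are libraries coloured by treatment, bars are means, and the dotted line marks the 30 CPM threshold on S100a8. Il1b spans 12.9 to 59.8 CPM in the S100a8-high libraries and 2.78 to 9.73 CPM in the S100a8-low ones, and the PBS libraries fall between or within these ranges.

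Of the cytokines tested in the gene lists, chemokines aside, Il1b had the largest difference between the sides. Il1b encodes interleukin-1 beta (chromosome 2, 129364570 to 129371139 in GRCm38, minus strand). It was at 59.8 and 28.4 CPM in detergent A replicates 1 and 4, and at 12.9 and 30.1 CPM in detergent B replicates 2 and 4. The 8 S100a8-low libraries ranged from 2.78 through a median of 4.98 to 9.73 CPM, and PBS from 5.18 through 8.16 to 12.5 CPM. All 4 S100a8-high libraries were above every PBS library, although detergent B replicate 2, the library with the most S100a8, exceeded the highest PBS library only narrowly. The log2 difference was 2.55 ± 0.35, which is 5.88-fold. In bulk skin, more cells of a type and more RNA per cell cannot be told apart, and this holds for each gene below.

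Tnf, the gene of tumour necrosis factor, differed in another way. It was at 5.43 and 3.22 CPM in detergent A replicates 1 and 4, and at 2.71 and 5.22 CPM in detergent B replicates 2 and 4. The S100a8-low libraries ranged from 1.10 through 1.73 to 2.42 CPM, and the PBS libraries from 2.96 through 3.20 to 4.85 CPM. The S100a8-high libraries thus lay around the PBS range, and all 8 S100a8-low libraries lay below every PBS library. The log2 difference between the sides was 1.25 ± 0.23.

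Of 13 genes tested in the interleukin-1 and interleukin-18 list, 2 were higher, Il1b and Nlrp3, and the list's median difference was 0.07. Il1a, which encodes the other interleukin-1 agonist, was at 24.4 to 36.4 CPM in the S100a8-high libraries and at 27.2 to 49.1 CPM in the S100a8-low ones. Il1rn, the receptor antagonist, was at 143 to 192 CPM against 105 to 164 CPM, with a difference of 0.29 ± 0.15. The 5 genes of the interleukin-36 list had a median difference of -0.06, with none higher. Il1f6, which encodes interleukin-36 alpha, averaged 46.0 ± 22.6 CPM (SD, n = 4) on the S100a8-high side and 45.9 ± 14.9 CPM (SD, n = 8) on the S100a8-low side.

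Among other cytokines, 1 of 11 tested in the list of interleukin-6, interleukin-17, interleukin-20 and TNF families was higher, which was Tnf. The median of that list was 0.42, and 10 of the 11 differences were positive. Osm, the gene of oncostatin M, was at 1.16 to 3.44 CPM against 0.409 to 1.68 CPM, so the sides overlapped. Il6 was at 2.66 and 2.82 CPM in the 2 S100a8-high libraries of detergent A and at 0.289 and 0.456 CPM in those of detergent B, against 0.205 to 1.63 CPM on the S100a8-low side. The epithelial alarmin Il33 was at 112 to 314 CPM against 26.7 to 228 CPM, and Tslp, another alarmin, at 1.61 to 3.65 CPM against 1.35 to 5.98 CPM.

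Chemokines that draw neutrophils and monocytes gave the largest positive difference among the named genes. Cxcl2 (chromosome 5, 90903871 to 90905938, plus strand) encodes a ligand of the neutrophil receptor Cxcr2. It was at 35.7 and 3.62 CPM in detergent A replicates 1 and 4, at 6.99 and 17.5 CPM in detergent B replicates 2 and 4, and at 0.239, 0.672 and 2.82 CPM for the lowest, median and highest of the S100a8-low libraries. PBS skin spanned only 1.10 to 1.51 CPM, so all 4 S100a8-high libraries were above it and the S100a8-low libraries straddled it. The log2 difference of 3.98 ± 0.64 (15.8-fold) rests on S100a8-high values that themselves spread from 3.62 to 35.7 CPM.

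Ccl3 and Ccl4 are neighbouring chemokine genes on chromosome 11. Ccl3 was at 12.3, 2.62, 3.87 and 6.08 CPM in detergent A replicates 1 and 4 and detergent B replicates 2 and 4, against 0.286, 1.01 and 1.54 CPM for the lowest, median and highest S100a8-low library. Ccl4 was at 8.09, 2.34, 3.35 and 4.61 CPM in the same order, against 0.0818, 0.768 and 0.921 CPM. Both were highest in detergent A replicate 1 and lowest of the 4 in detergent A replicate 4, with differences of 2.76 ± 0.44 for Ccl3 and 2.85 ± 0.44 for Ccl4. In PBS skin both had 1 library apart from the rest, replicate 6, at 3.75 CPM for Ccl3 and 2.87 CPM for Ccl4, above detergent A replicate 4.

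Cxcl2, Ccl3 and Ccl4 were the 3 higher genes among 7 tested in the list of neutrophil chemoattractants and growth factors, whose median was 2.18, and all 7 differences were positive. Cxcl1, a close relative of Cxcl2, was at 6.10 and 10.1 CPM in the detergent A libraries and 2.71 and 1.52 CPM in the detergent B libraries of the S100a8-high side, against 0.245 to 5.86 CPM on the S100a8-low side, so it overlapped. Cxcl5, another ligand of Cxcr2, was at 0.760 to 10.9 CPM against 0 to 3.67 CPM and overlapped too. Cxcl3 had too few counts to enter the model, but its 4 S100a8-high values of 3.99, 1.03, 0.924 and 1.42 CPM were all above the S100a8-low maximum of 0.228 CPM. Of 18 monocyte and lymphocyte chemokines, none was 2-fold higher and the median was 0.11, while Ccl7 and Ccl2, ligands of the monocyte receptor Ccr2, did not overlap in the higher direction, as 0.267% of all genes did not. Ccl7 was at 41.3 to 50.7 CPM against 9.08 to 35.9 CPM (0.90 ± 0.30), and Ccl2 at 34.9 to 52.2 CPM against 4.58 to 33.7 CPM (0.84 ± 0.39).

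**Figure D2:**
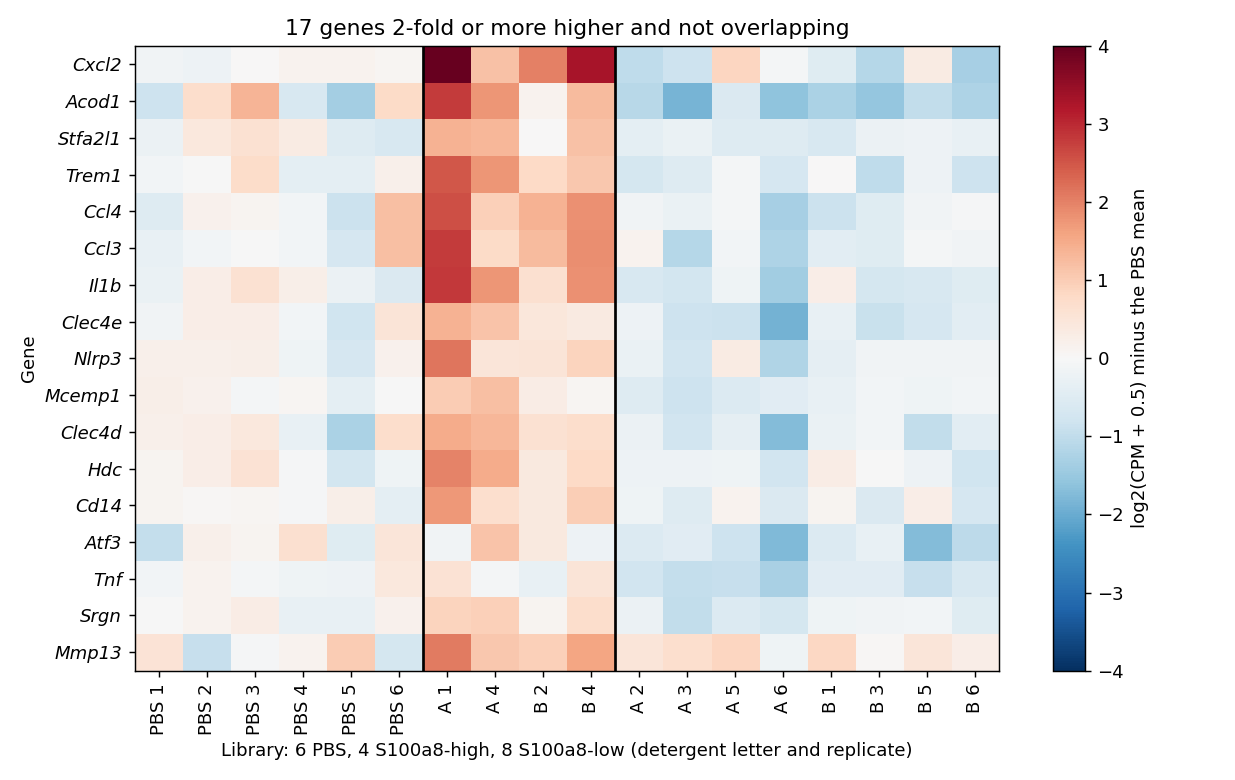
Heat map of log2(CPM + 0.5) minus the PBS mean for the 17 named higher genes (vertical axis, ordered by log2 difference) in 18 libraries (horizontal axis; vertical lines separate 6 PBS, 4 S100a8-high and 8 S100a8-low libraries). Red is above and blue below the PBS mean; detergent A replicate 1 is the reddest column, and the S100a8-low columns are mostly blue or near white, except for Mmp13.

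Of the receptors, Trem1, which amplifies inflammatory signals on neutrophils and monocytes, was at 6.49, 3.77, 1.68 and 2.13 CPM in detergent A replicates 1 and 4 and detergent B replicates 2 and 4. The S100a8-low libraries were at 0.123, 0.336 and 0.764 CPM (lowest, median, highest), and PBS at 0.450, 0.712 and 1.58 CPM. All 4 S100a8-high libraries were above all PBS libraries, and the difference was 3.01 ± 0.43. Clec4e and Clec4d encode the paired C-type lectins Mincle and MCL, which recognise microbial glycolipids and products of dead cells on myeloid cells. Clec4e was at 9.09, 7.63, 4.51 and 4.16 CPM against 0.491, 1.66 and 2.67 CPM, with a difference of 1.85 ± 0.35. Clec4d was at 17.2, 15.4, 9.13 and 9.68 CPM against 1.39, 4.32 and 5.34 CPM, with a difference of 1.76 ± 0.30. For these lectins the detergent A libraries of the S100a8-high side were above the detergent B ones, and the PBS ranges of 1.60 to 4.69 and 2.11 to 9.65 CPM reached into the S100a8-high values.

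Cd14, the co-receptor for bacterial lipopolysaccharide on monocytes and macrophages, was at 38.9, 18.4, 14.96 and 23.0 CPM in the S100a8-high libraries in the same order. The S100a8-low libraries ranged from 6.89 through 8.87 to 13.8 CPM and PBS from 8.44 through 11.8 to 13.2 CPM. All 4 were above every PBS library, with a difference of 1.31 ± 0.26 between the sides.

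Nlrp3, the sensor of the inflammasome, was at 7.82, 2.19, 2.19 and 3.04 CPM in the S100a8-high libraries, against 0.327, 1.16 and 1.88 CPM for the lowest, median and highest of the S100a8-low side. The PBS maximum was 1.74 CPM, below all 4, but 2 of them exceeded the S100a8-low maximum by little. The difference was 1.81 ± 0.42. Casp1, the protease that the inflammasome activates, and its adaptor Pycard differed by -0.06 and 0.04.

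Acod1 encodes the mitochondrial enzyme that makes itaconate in activated macrophages and neutrophils. It was at 14.6, 6.79, 1.91 and 4.66 CPM in the S100a8-high libraries against 0.0962, 0.409 and 0.939 CPM, a difference of 3.90 ± 0.48 (14.9-fold). PBS skin ranged from 0.351 to 5.06 CPM, with a median of 1.94, so 2 of the 4 S100a8-high libraries were within the PBS range. The S100a8-low mean of Acod1 was 0.424 ± 0.264 CPM (SD, n = 8) and the PBS mean 2.19 ± 1.85 CPM (SD, n = 6). The choice of this gene for a gap between the sides favours a low S100a8-low mean.

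Hdc, the histamine-forming enzyme of mast cells, basophils and neutrophils, was at 40.1, 28.7, 13.1 and 17.5 CPM against 5.46, 8.48 and 12.3 CPM (1.54 ± 0.27). Srgn, the proteoglycan of secretory granules in blood cells, was at 56.5, 59.0, 32.5 and 48.9 CPM against 14.9, 23.3 and 27.8 CPM (1.18 ± 0.18). In both, detergent B replicate 2 was the lowest of the 4 and came nearest to the S100a8-low side. In the mast cell list 7 of 9 differences were positive, with a median of 0.14. None of the 9 genes was higher by the rule, which only 0.107% of all genes met. The summed level of the list was 109 to 247 CPM on the S100a8-high side, 99.6 to 203 CPM on the S100a8-low side and 133 to 196 CPM in PBS.

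Atf3, a stress-induced transcription factor, was at 18.5, 45.4, 26.8 and 17.7 CPM against 5.65, 12.5 and 16.4 CPM, a difference of 1.28 ± 0.32. PBS libraries ranged from 10.4 to 32.0 CPM with a median of 22.9, so 2 of the 4 S100a8-high libraries were below the PBS median. It was the only higher gene of 15 immediate early genes, whose median was 0.13, and Fosb, at 2.95 to 41.2 CPM against 1.23 to 13.7 CPM, overlapped. The 13 genes of the list of NF-kB target and feedback genes had differences of 0.01 to 0.46 with a median of 0.13. None of these was higher by the rule, which 0.107% of all genes met, although all 13 were positive. The list leaves out Cxcl2, Il1b, Tnf, Ccl3, Ccl4 and Nlrp3, which were placed in other lists, so it does not count all targets of NF-kB.

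Mmp13, a collagenase of wound and inflamed tissue, was at 13.5, 6.56, 6.01 and 9.43 CPM against 2.45, 4.18 and 5.59 CPM, a difference of 1.12 ± 0.26. It was the exception among the 18 in that its S100a8-low mean of 4.11 ± 1.12 CPM (SD, n = 8) was not below the PBS mean of 3.20 ± 1.85 CPM (SD, n = 6). It was the 1 higher gene of 15 in the list of matrix proteases and wound genes, where 13 differences were positive and the median was 0.49. Mmp10, a stromelysin, was at 7.30 to 12.1 CPM against 0.409 to 8.51 CPM, and Plaur, the urokinase receptor, at 18.6 to 32.3 CPM against 6.10 to 19.5 CPM, so both overlapped.

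The least abundant higher genes rest on few reads. Stfa2l1, of the stefin A protease inhibitors, was at 1.55, 1.47, 0.289 and 1.27 CPM in the S100a8-high libraries and at no more than 0.183 CPM on the S100a8-low side, with a difference of 3.41 ± 0.51. Mcemp1, a membrane protein of mast and myeloid cells, was at 1.996, 2.38, 1.04 and 0.811 CPM against at most 0.657 CPM. Stfa2l1 belongs to a family of near-identical copies, so its counts are uncertain as those of a single gene.

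The promoters of Cxcl2, Nlrp3 and Mmp13 are printed because they hold, before the start of transcription, a match to a motif of factors known to act in inflammation. Promoters of 15 of the 17 named genes were matched in a table of RefSeq gene starts on GRCm38.p6, each running from 250 bases before to 50 after the start. The 250 bases before it are shown here, 5′ to 3′ on the strand of the gene, with the match in capitals, which is to the NF-kB motif in Cxcl2 and Nlrp3 and to the AP-1 motif TGANTCA in Mmp13.
Cxcl2, chr5:90903649-90903898, plus strand: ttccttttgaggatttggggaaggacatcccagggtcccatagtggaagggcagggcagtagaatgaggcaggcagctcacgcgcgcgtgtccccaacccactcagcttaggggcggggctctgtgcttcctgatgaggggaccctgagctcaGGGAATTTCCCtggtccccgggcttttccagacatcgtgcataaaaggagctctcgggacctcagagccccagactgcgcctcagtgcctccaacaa
Nlrp3, chr11:59541319-59541568, plus strand: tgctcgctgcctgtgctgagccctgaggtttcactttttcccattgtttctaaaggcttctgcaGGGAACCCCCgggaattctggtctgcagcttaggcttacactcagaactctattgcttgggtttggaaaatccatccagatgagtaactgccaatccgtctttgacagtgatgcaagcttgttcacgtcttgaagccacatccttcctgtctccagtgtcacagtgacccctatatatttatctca
Mmp13, chr9:7272264-7272513, plus strand: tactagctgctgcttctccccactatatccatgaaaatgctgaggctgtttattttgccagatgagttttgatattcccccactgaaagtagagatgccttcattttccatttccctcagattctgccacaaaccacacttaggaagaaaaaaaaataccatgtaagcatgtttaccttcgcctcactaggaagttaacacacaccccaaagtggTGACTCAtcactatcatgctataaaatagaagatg

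The Cxcl2 run holds 2 overlapping NF-kB matches, which begin 97 and 96 bases before the start, the Nlrp3 match begins 186 bases before it, and the Mmp13 match 35 bases before it. Searching both strands of the whole 300 bases, 2 of the 15 promoters (13.3%) held the NF-kB motif, against 8.18% of the 27025 promoters of the table. The RefSeq starts used for Hdc and Atf3 lie 621 and 34706 bases from the GENCODE start of the gene, so the Atf3 window is that of another transcript start, and without these genes the NF-kB motif was in 2 of 13 promoters (15.4%) and TATAAA in 6 of 13 (46.2%). Among all 15, the AP-1 motif TGANTCA was in 2 of the 15, those of Mmp13 and Mcemp1, against 7.93% of all, the cyclic AMP response motif TGACGTCA in 0 of the 15 against 1.88%, and TATAAA in 6 of the 15 (40%) against 14.2%. These matches are descriptions of letters in this window and were not tied to the differences in level.

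Across the 18 higher genes, 1 library stood out. Detergent A replicate 1 was the highest of the 12 libraries in 15 of them and detergent A replicate 4 in the other 3. Detergent B replicate 2, which had the most S100a8, was the lowest of the 4 in 11 of the 18. On the other side, detergent A replicate 6 was the lowest of the 8 libraries in 10 of the 18. The order of the libraries by S100a8 was thus not their order by these genes.

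Set beside PBS skin, 5 of the 18 genes had all 4 S100a8-high libraries above all 6 PBS libraries, and these were Cxcl2, Trem1, Il1b, Nlrp3 and Cd14. In 17 of the 18 the mean of the S100a8-low side was below the PBS mean, and in 9 of the 18 all 8 S100a8-low libraries were below the PBS median. PBS skin lay between the sides for most of these genes, which their choice favours. They were picked for S100a8-high values above all S100a8-low values, and PBS played no part in this. The position of PBS is therefore described only, and no conclusion about PBS skin is drawn from it.

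The labelled comparisons did not use the split and can be tested. In edgeR's quasi-likelihood test with Benjamini-Hochberg adjustment over 16836 genes, 31 genes (0.184%) were called for detergent A against PBS, 9 higher and 22 lower, and 515 (3.06%) for detergent B, 333 higher and 182 lower. None of the 18 genes was called in either comparison by edgeR, nor by DESeq2 or with any library left out. At an unadjusted p under 0.05, edgeR passed 2 of them for detergent A and 0 for detergent B. The 18 were chosen for a gap between libraries of the same detergent, which widens their spread and works against a call. With 0.184% and 3.06% of all genes called, the absence of calls does not set them apart. The adjusted p of the 18 genes in edgeR were 0.19 to 0.8825 for detergent A and 0.2284 to 0.9979 for detergent B. Mmp13 came closest in both, with log2 changes of 1.05 for detergent A and 0.85 for detergent B. Il1b had a log2 change of 1.20 for detergent A (adjusted p = 0.3292) and 0.59 for detergent B (adjusted p = 0.6132), with 2 libraries of 6 in each group on the S100a8-high side. Cxcl2 had 2.53 (adjusted p = 0.2209) and 1.93 (adjusted p = 0.2824), and Tnf -0.42 and -0.23 (adjusted p = 0.5249 and 0.7193).

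Groups of epidermal genes were called for detergent B, for which 3.06% of all genes were called. None of their members was higher or lower between the sides, by a rule that only 0.107% and 0.00594% of all genes met. The test and the rule pass unlike shares of genes, so their counts are not compared. Of 16 barrier lipid genes, 10 rose for detergent B and 1 for detergent A, while their median difference between the sides was 0.04. Degs2, a desaturase of ceramide synthesis, rose in both, by 1.54 for detergent A (adjusted p = 0.0401) and 1.90 for detergent B (adjusted p = 0.00867) on the log2 scale, and was at 37.4 to 98.1 CPM on the S100a8-high side against 41.8 to 113 CPM on the S100a8-low side. Of 18 cornified envelope and filaggrin genes, 9 rose for detergent B, with a median of -0.15 between the sides. Ivl, the envelope precursor involucrin, rose by 1.07 for detergent B (adjusted p = 0.0105) and was at 335 to 490 CPM against 287 to 555 CPM. In the interleukin-36 list 4 of 5 genes rose for detergent B, among them Il1f6 by 1.61 (adjusted p = 0.006419). All 6 genes of the stefin A list, which leaves out Stfa2l1, rose for detergent B, with a median of 0.31 between the sides and none higher. With the hair shaft keratin score described below as a covariate, edgeR called no gene for either detergent (1567 and 1624 genes at an unadjusted p under 0.05). For detergent B, the log2 change was then 1.55 for Degs2 (adjusted p = 0.1133), 0.71 for Ivl (adjusted p = 0.1324) and 1.14 for Il1f6 (adjusted p = 0.1133), and the median over the 10 barrier lipid genes that had been called was 0.35 in place of 0.68. The detergent B calls also rested on single PBS libraries, as 27 genes in all were called without PBS replicate 2 and 28 without PBS replicate 3. In either of these fits 1 barrier lipid gene, 3 cornified envelope genes, 2 interleukin-36 genes and 1 stefin A gene were called. No gene was called for detergent A without PBS replicate 1, 2 or 3 or detergent A replicate 1, 3 or 5, among them Degs2.

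No stress keratin, small proline-rich gene or antimicrobial gene tested was higher or lower between the sides by the rule. Only 0.107% of all genes were higher by it and 0.00594% lower, so this does not set these lists apart. Krt6a, induced in wounded and hyperproliferative epidermis, averaged 2515 ± 1675 CPM (SD, n = 4) against 1501 ± 1189 CPM (SD, n = 8). Krt16, its type I partner, differed by 0.61 ± 0.63. None of the 4 stress keratins was higher, their median was 0.63, and Krt17 differed by -0.01. Of 14 small proline-rich genes 13 were positive, with a median of 0.81 and none higher, and Sprr2f was at 4.21 to 22.1 CPM against 0.777 to 7.65 CPM. The exception, Sprr2a1, was at 0.278 to 1.22 CPM against 0.0452 to 20.02 CPM, with a difference of -3.16 ± 1.45. Of 17 antimicrobial and acute phase genes none was higher, the median was 0.14, and Lcn2, which encodes a siderophore-binding protein, was at 14.5 to 38.8 CPM against 6.33 to 16.0 CPM. Saa3, an acute phase gene, was at 6.91 to 49.96 CPM against 3.62 to 54.6 CPM.

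**Figure D3:**
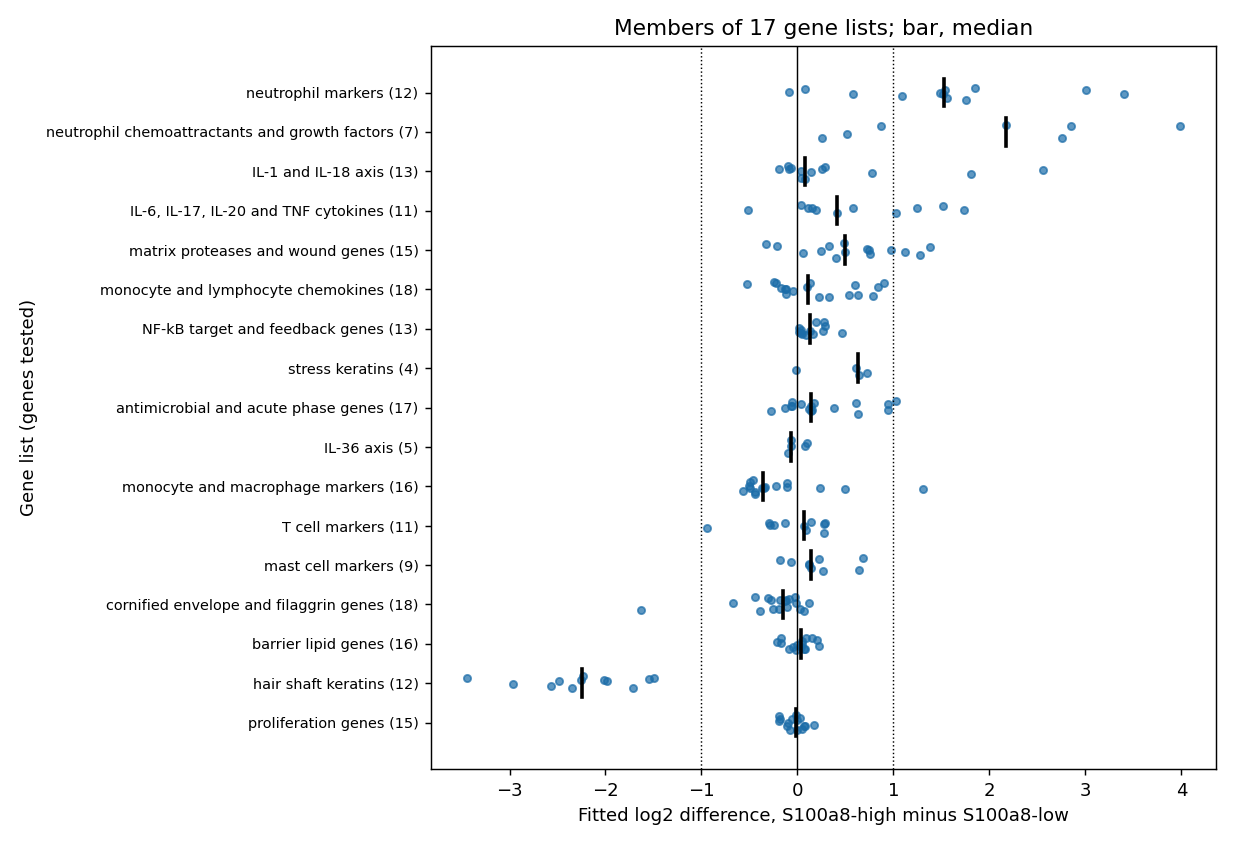
Fitted log2 differences (horizontal axis, S100a8-high minus S100a8-low) of the members of 17 gene lists (vertical axis, with the number of genes tested); each point is a gene, thick bars are medians and dotted lines mark 2-fold. Neutrophil markers and neutrophil chemoattractants lie to the right with medians of 1.53 and 2.18, hair shaft keratins to the left with -2.25, and the other lists shown have medians between -0.36 and 0.63.

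Markers of cell types moved unevenly. Of 19 neutrophil markers 12 entered the model, 4 were higher (Stfa2l1, Trem1, Clec4d and Clec4e), and the median was 1.53. Csf3r, the receptor for granulocyte colony-stimulating factor, was at 15.7, 41.2, 14.2 and 8.82 CPM against 4.86 to 15.4 CPM, and Cxcr2 at 20.6 to 58.3 CPM against 10.02 to 42.6 CPM, so both overlapped. The summed level of the list was 261 to 377 CPM on the S100a8-high side, 210 to 286 CPM on the S100a8-low side and 192 to 300 CPM in PBS. The granule and maturation markers Ly6g, Ngp, Ltf, Camp, Mpo and Elane did not enter the model and were at no more than 0.608 CPM in any library, with Ly6g listed at 0 in 13 and Ngp in 12 of 18 libraries. Fpr1, a formyl peptide receptor, also stayed out of the model and was at 0.462 to 1.55 CPM against 0 to 0.346 CPM, so its sides did not overlap.

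Of 16 monocyte and macrophage markers only Cd14 was higher, 3 differences were positive and the median was -0.36. Csf1r, the receptor for macrophage colony-stimulating factor, was at 58.3 to 105 CPM against 36.5 to 213 CPM, and the list summed to 562 to 1448 CPM against 374 to 2218 CPM. Lists of T cell, dendritic and Langerhans cell, endothelial, fibroblast, basal and suprabasal keratinocyte markers had medians of 0.06, -0.12, 0.03, -0.02, 0.08 and -0.07, with none of their genes higher or lower. The basal keratinocyte list summed to 12039 CPM or more in every library, in keeping with the label of skin. B cell and eosinophil and basophil lists had 1 gene each in the model.

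In the lists of hair shaft keratins and of skeletal muscle and red blood cell markers, none of the genes tested was higher or lower by the rule above. All 12 hair shaft keratins had negative differences, with a median of -2.25, and their sides overlapped. Their summed level was 117, 0.874, 7.45 and 11.9 CPM in detergent A replicates 1 and 4 and detergent B replicates 2 and 4. It was 0.643 to 15.8 CPM in 4 of the S100a8-low libraries and 111 to 305 CPM in the other 4, and 13.1 to 571 CPM in PBS. With a score of these keratins as a covariate, the log2 differences of the 18 higher genes were 1.11 to 3.999, with a median of 1.86 against 1.83 without it, and 7 of the 18 were smaller than without it. The covariate enters only this difference, and the overlap of the CPM values is unaffected by it. The 9 skeletal muscle markers were all positive with a median of 0.63, and summed to 7232 to 14517 CPM against 4710 to 10867 CPM. The 5 red blood cell markers were also all positive, with a median of 0.86 and sums of 15.9 to 80.6 CPM against 8.56 to 65.0 CPM. Their part in the differences was not tested.

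**Figure D4:**
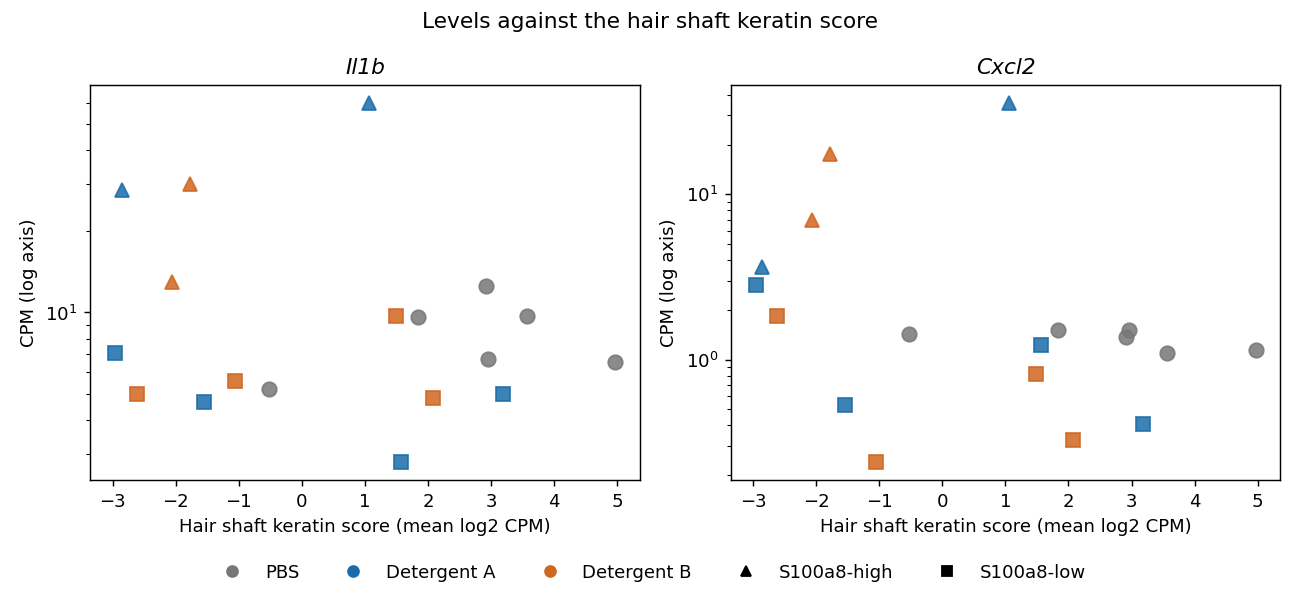
Il1b and Cxcl2 in CPM (vertical, log axis) against the hair shaft keratin score, the mean log2 CPM of 12 genes (horizontal axis), in 18 libraries; triangles are S100a8-high, squares S100a8-low and circles PBS, coloured by treatment. Of the 4 triangles, 3 share the low scores of 4 squares and 1, detergent A replicate 1, has a score near those of the other 4 squares, and the triangles lie above the squares in both panels.

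The set of 18 genes depended on where S100a8 was divided. With a threshold of 20 CPM, which moves detergent B replicate 6 to the upper side, 6 genes were higher, of which 1 was among the 18, and with the widest gap in S100a9, which leaves only detergent A replicate 1 and detergent B replicate 2 above it, 31 were higher and none of them was among the 18.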

How the data were processed

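RNA sequencing libraries of total RNA from skin were compared: 6 each from PBS, detergent A and detergent B skin, each detergent divided by S100a8 into 2 S100a8-high and 4 S100a8-low libraries. Each deposited file gives raw gene-level read counts. Per the submitters' processing notes the authors used STAR, featureCounts and GRCm38.p5; for versions, annotation, strand and multiply mapped reads the sources used here give nothing, so overlapping genes and near-identical families are uncertain. Of 41605 gene IDs, 41519 were matched to GENCODE M21. CPM is the count scaled to the library total. Genes were filtered (filterByExpr, 16836 kept), TMM-scaled and fitted with edgeR 4.0.16 (R 4.3.3): the 12 detergent libraries with side and detergent as terms, for effect sizes only, and all 18 libraries by labelled group for the tests (adjusted p threshold 0.05). The scripts were tested on simulated data. Named genes were the 15 largest higher and 10 largest lower by log2 difference with a mean of at least 2 CPM on the upper side, passing over predicted genes, Rik clones and pseudogenes (none qualified as lower), up to 4 per list with at least 1 CPM, and a set list of genes. Stfa2l1, Mcemp1, Gm42793, Gm45424 and Fpr1 lie outside it and were picked with their values in view, like list members with values below it. Members and the 46 gene lists were chosen with earlier results of these data known. No pair of libraries agreed within sampling noise (chi-square per gene at least 9.36). Alternatives were DESeq2 1.42.0, other thresholds, filters, covariates and folds, a replicate block and each library left out.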

Additional observations from a re-analysis of the deposited data

Results flagged for a closer look

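In groups of 6 libraries, 15 values of 78 groups examined stood apart from the nearest other library by more than Dixon's critical value. For independent values from a normal distribution, chance exceeds that value in about 1 of 20 groups. The groups here share libraries, and many genes were picked for a gap between libraries, so this rate does not apply to them. Detergent A replicate 1 was apart for Cxcl2 (35.7 CPM), Ccl4 (8.094 CPM), Ccl3 (12.31 CPM), Nlrp3 (7.817 CPM), Cd14 (38.92 CPM) and Mmp13 (13.53 CPM). Detergent A replicate 4 was apart for Atf3 (45.41 CPM) and Csf3r (41.16 CPM). Detergent B replicate 4 was apart for Il1b (30.05 CPM) and Tnf (5.22 CPM), and detergent B replicate 2 for S100a8 (145.8 CPM) and S100a9 (138.9 CPM). In PBS skin, replicate 6 was apart for Ccl3 (3.75 CPM) and Ccl4 (2.868 CPM), and replicate 5 for Tslp (6.767 CPM). All 12 of the values in detergent-treated skin were from S100a8-high libraries, which the choice of the sides favours.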

How the results depend on the processing

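The 19 genes 2-fold apart and not overlapping became 6 with an S100a8 threshold of 20 CPM (1 of the 18 higher genes kept), 76 with S100a9 divided at its widest gap (none kept), 43 without the filter on low counts and 32 with a 1.5-fold limit (all 18 kept in both). Leaving out 1 library gave 18 to 39 genes and kept 16 to 18 of the 18 higher ones; the count was 39 without detergent A replicate 1, 37 without detergent B replicate 4 and 30 without detergent B replicate 2. Under 8 other settings it was 19 to 27. Of these, a threshold of 40 CPM and S100a8 in TMM-scaled CPM put the same 4 libraries on the S100a8-high side, so they repeat the main fit. Changes of covariate and DESeq2 leave the overlap of the CPM values as it was. With replicate number as a replicate block the count was 20, with 14 of the 18 kept. Correlations of same-numbered deviations ran from -0.35 to 0.55 and 8 of 18 exceeded 0.1. Differently numbered libraries were not correlated for comparison, so whether the numbers pair the libraries was not settled. The log2 differences of the 18 genes kept their sign in all 378 values under alternatives, with a lowest of 0.62. The choice of these genes for a gap between the sides favours this, so the kept sign is no separate support for them. These values bear on the size of the differences and not on the calls counted above.

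Detergent A against PBS gave 31 calls, 5 without the filter, 0 with a replicate block (3354 at an unadjusted p under 0.05), 0 with the hair shaft keratin score, 775 with DESeq2, and 0 to 886 with 1 library left out. Detergent B gave 515, 287 without the filter, 391 with a replicate block, 0 with the hair score, 1397 with DESeq2, and 27 to 1878 with 1 library left out. Detergent A counts were 0 without PBS replicate 1, 2 or 3 or detergent A replicate 1, 3 or 5, and highest without PBS replicate 6, as for detergent B. At an unadjusted p under 0.05, 3161 genes passed for detergent A and 3931 for detergent B. The causes were not tested. Genes under about 1 CPM rest on few reads, and the counts cover 4 against 8 libraries chosen by one transcript.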

Other observations

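The 6 PBS libraries played no part in the split, so the relation of S100a8 to the other genes could be examined in them; this was chosen after the data were seen. Pearson r between S100a8 and each of the 17 named higher genes and S100a9, in CPM, ran from -0.64 to 0.78, and 12 of 18 were positive. None passed Benjamini-Hochberg adjustment over the 18 relations, with a lowest adjusted p of 0.6625 for r and 0.7875 for Spearman's rho in exact two-sided permutation tests over 720 orders, where the smallest p possible is 0.001389. The highest rho was 0.83, for Hdc. Without the 2 libraries farthest from the median of S100a8, r over the remaining 4 ran from -0.76 for Atf3 to 0.98 for Hdc. It went from 0.78 to -0.37 for Mcemp1, from 0.68 to 0.98 for Hdc, from 0.22 to 0.88 for Il1b and from 0.48 to 0.95 for S100a9, so these values rest on which libraries enter, and 4 libraries allow no reading of them.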
